A study of Mus musculus with 8 samples.

Results

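Osteocrin and the natriuretic peptide system were followed as 10 genes of the 55471 counted in mouse heart: the peptide genes Ostn, Nppa, Nppb and Nppc, the receptor genes Npr1, Npr2 and Npr3, and the protease genes Corin, Furin and Mme. The genes were chosen by name, and Ostn stood out in this same contrast of TAZG197V against WT hearts. Their differences between genotypes are therefore given as a description. Calls of these genes are listed, but no p-value is printed for them and nothing is read from the calls. RNA was sequenced from 4 WT and 4 TAZG197V hearts, a small piece of each, taken from male mice at 14 weeks of age. TAZG197V mice carry a CRISPR-made knock-in of a missense mutation found in patients with Barth syndrome, which replaces glycine by valine in Tafazzin, an enzyme of cardiolipin remodelling in mitochondria. Zygotes were C57BL/6N and founders were crossed to C57BL6/J for 2 generations. The study bred heterozygous females to WT males and describes the mutant males as littermates, but the labels do not say from which litters these libraries came. The mutation is present in every cell of the animal. GEO's labels and the study's methods speak of homozygous offspring, whereas its results speak of hemizygous males, as the gene lies on the X chromosome. The labels number the libraries but tie none to a named animal, so p-values measure the spread between these samples.

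Natriuretic peptides are hormones that lower blood pressure and volume. Atrial and B-type natriuretic peptide, the products of Nppa and Nppb, are released by stretched cardiomyocytes and act through the receptor guanylyl cyclase encoded by Npr1, while C-type natriuretic peptide (Nppc) acts through the one encoded by Npr2. Both cyclases make cGMP. The receptor encoded by Npr3 has no cyclase domain and removes the peptides from the extracellular space, and neprilysin (Mme) cuts them. Osteocrin, also named musclin, is a secreted peptide known from bone and skeletal muscle. It binds the Npr3 receptor and not the cyclases, and so slows the clearance of the natriuretic peptides.

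The 8 libraries held 23055689 to 36301031 counts each, and levels are given below as TMM-scaled CPM (counts divided by library size, scaled so that libraries of unlike depth compare) with the SD over 4 libraries. Of 15084 genes tested, 33.5% were called, 18.5% higher and 15.1% lower in TAZG197V. A gene was called at an adjusted p under 0.05 by edgeR's quasi-likelihood test, a log2 fold change beyond 0.20 in either direction and a mean scaled count of at least 50. The edited gene Taz was measured at 60.9 ± 2.36 CPM in WT and 47.3 ± 2.60 CPM in TAZG197V (log2 fold change -0.37, SE 0.0551, adjusted p = 0.00124, n = 4 each by edgeR), and a base change leaves no mark in exon counts that could check the labels. Markers of heart muscle were abundant throughout, with 5 cardiomyocyte genes summing to 47015 to 51702 CPM in WT and 38391 to 42877 CPM in TAZG197V. Several libraries stood apart by markers of other cells. The 9 atrial markers summed to 1171 CPM in WT 2 and 200.4 CPM in WT 1, against 110.3 to 147.0 CPM in WT 3 and WT 4 and 33.8 to 53.6 CPM in TAZG197V. Most of the sum in WT 3 and WT 4 was 1 gene, the potassium channel gene Kcnj3, at 94.3 and 124.1 CPM against 23.0 to 31.6 CPM in TAZG197V, while Myl7 stood at 0.194 and 0.625 CPM there and at 0.387 to 1.28 CPM in TAZG197V. The 6 red cell markers summed to 55072 CPM in WT 4 and to 227.3 to 1065 CPM in the other libraries. The 6 brain markers summed to 95.8 CPM in WT 4 and 247.0 CPM in TAZG197V 4, against 3.88 to 8.25 CPM elsewhere. Because the tissue was measured in bulk, fewer cells of a type and less RNA per cell cannot be told apart.

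Among the 10 genes, 9 passed the low-count filter and 5 were called, beside 33.5% of all genes tested. Ostn was the member called higher, and Npr1, Npr2, Furin and Mme were called lower. Npr1 lost its call with an atrial marker score, at a log2 fold change of -0.40 beside -0.43 in the reported fit. Npr2 lost its call without WT 1 and WT 2, at -0.25 beside -0.27. The same 5 genes were the ones whose libraries did not overlap between genotypes, a separation that 33.2% of all genes tested showed. Nppc did not pass the filter, and Ostn passed it only through the TAZG197V libraries. Nothing is read from these counts, since the same contrast chose the genes.

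**Figure D1:**
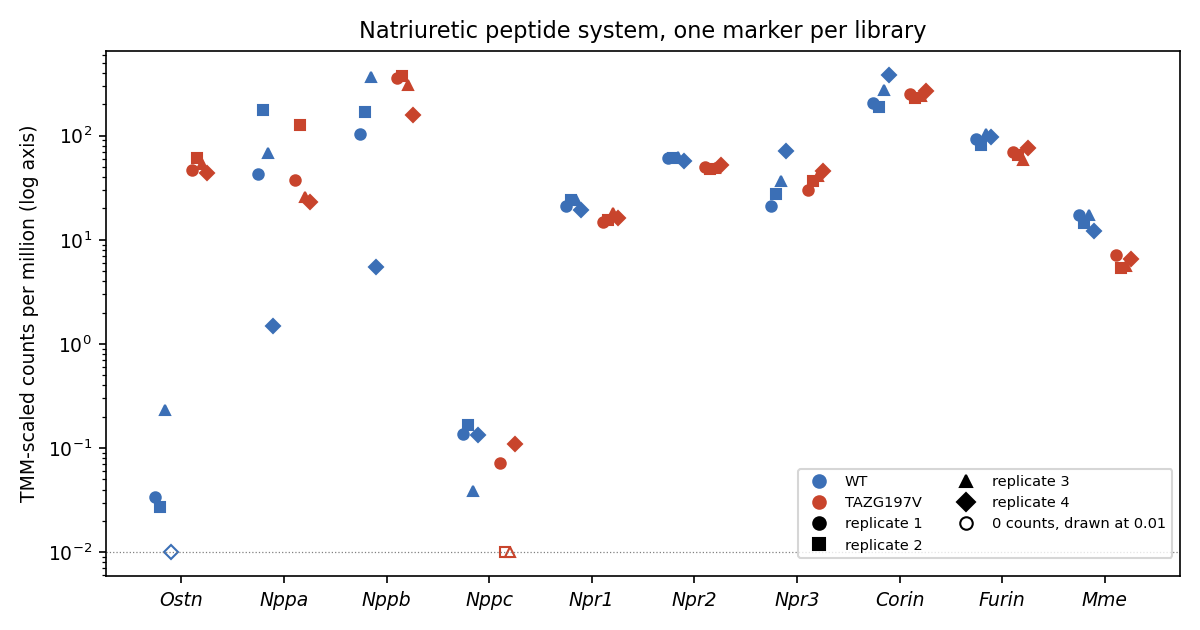
TMM-scaled CPM on a log axis for the 10 genes, with 1 marker per library, WT in blue and TAZG197V in red, shaped by replicate number; open markers are libraries with 0 counts, drawn at 0.01. Ostn lies at 43.3 to 61.2 CPM in TAZG197V and at most at 0.233 CPM in WT, Npr1, Npr2, Furin and Mme lie lower in TAZG197V with no overlap, and Nppa and Nppb each have 1 WT library, WT 4, far below the rest.

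Ostn (ENSMUSG00000052276) lies on the plus strand of chromosome 16 at 27307489 to 27351212 of build mm10. Its raw counts were 1, 1, 6 and 0 in WT 1 to WT 4 and 1276, 2268, 1666 and 1182 in TAZG197V 1 to TAZG197V 4. The transcript was thus near the limit of detection in every WT heart and plainly counted in every TAZG197V heart. In CPM the TAZG197V libraries stood at 46.4, 61.2, 53.8 and 43.3, a mean of 51.2 ± 8.00 (SD, n = 4), against 0.0736 ± 0.107 (SD, n = 4) in WT. The TAZG197V hearts differed among themselves by far less than they differed from WT. Summed over libraries and set against total counts, 6392 counts against 8 gave a ratio of 770, with an exact 95% interval from 390.5 to 1784 that covers counting error only. The fitted log2 fold change was 9.27 (SE 0.295), and its size depends on the prior count added to such low WT values. It was 11.48 without WT 3, the WT library with most Ostn counts, and 8.51 with an atrial marker score in place of the surrogate variables. An antisense gene, Gm32312, shares 12.9% of the exon bases of Ostn and had at most 2 counts in any library. Its counts do not show how many Ostn reads, if any, went uncounted in the shared bases.

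Per kilobase of exon, Ostn was by its mean the lowest of the 10 genes in WT and the fourth in TAZG197V. In TAZG197V it stood at 36.0 ± 5.62 CPM per kb, behind Nppb at 382.1 ± 125.1, Nppa at 61.7 ± 56.9 and Corin at 45.8 ± 3.25 CPM per kb. The place of Nppa before Ostn rested on TAZG197V 2: Nppa stood at 43.6, 146.4, 30.03 and 26.9 CPM per kb in TAZG197V 1 to TAZG197V 4 and Ostn at 32.6, 43.0, 37.8 and 30.5, so that Ostn lay above Nppa in TAZG197V 3 and TAZG197V 4. Nppa shares 61.5% of its exon bases with the antisense gene Gm13054, and Ostn 12.9% with Gm32312. With the strand setting not stated, reads in shared bases may be missing, and more so from Nppa. The order of Nppa and Ostn is therefore uncertain. The ranges of Corin and Ostn touched (30.5 to 43.0 for Ostn and 42.8 to 50.1 for Corin). Npr2, next in order at 10.6 ± 0.410 CPM per kb, lay below every Ostn value. Relative to Npr3, the gene of the receptor that osteocrin binds, Ostn stood at 6.27 to 11.0 per kb in TAZG197V and at 0 to 0.0422 in WT.

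The tissues in which osteocrin is best known left little trace in these libraries. The 7 bone markers summed to 0.981 to 1.38 CPM in WT and 0.783 to 1.17 CPM in TAZG197V, and the osteoblast gene Bglap had 0 counts in every library. The 11 skeletal muscle markers summed to 2.54 to 4.16 CPM in WT and 1.36 to 1.85 CPM in TAZG197V. The fast myosin genes Myh1, Myh2 and Myh4 had at most 4 counts in any library, and the myogenic factor genes Myog and Myf6 at most 1. The bone sums overlapped between genotypes, and the skeletal muscle sums were lower in every TAZG197V heart than in every WT heart.

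The gene that follows Ostn on the chromosome showed the same separation. Uts2b, which encodes the vasoactive peptide urotensin-2B, lies on the minus strand at 27353322 to 27370239 of chromosome 16, with 2109 bases between its end and the end of Ostn, so that the 2 genes converge. Its raw counts were 0, 0, 1 and 0 in WT 1 to WT 4 and 26, 38, 34 and 24 in TAZG197V 1 to TAZG197V 4. Counts were thus low in every TAZG197V heart and at or next to 0 in every WT heart. The level was 0.987 ± 0.0946 CPM in TAZG197V and 0.00971 ± 0.0194 CPM in WT, and the fitted log2 fold change was 6.09 (SE 0.526). Like Ostn, Uts2b passed the low-count filter only through the TAZG197V libraries, so it is given as a description with no p-value. Its mean scaled count of 14.5 was under the 50 that a call needs. The summed counts, 122 against 1, gave a ratio of 118 relative to total counts, with an exact 95% interval from 20.7 to 4680 for counting error. For each 100 Ostn counts there were 2.04, 1.68, 2.04 and 2.03 Uts2b counts in TAZG197V 1 to TAZG197V 4. As the strand setting of the counting was not stated, reads running past the end of Ostn and reads of Uts2b cannot be told apart.

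Other genes around Ostn did not show this pattern. Within 500000 bases, 8 genes are annotated, and Ostn, Uts2b and Ccdc50 were the 3 with at least 20 counts in every TAZG197V library. Ccdc50, which codes for a coiled-coil protein, had 1256 to 2272 counts in WT and 1328 to 1792 in TAZG197V, and its log2 fold change was -0.16 (SE 0.0605, adjusted p = 0.0740 by edgeR). Gmnc had at most 7 counts in any library. Il1rap, a receptor subunit gene and the nearest tested protein-coding gene on the other side, 577371 bases away, gave -0.35 (SE 0.139, adjusted p = 0.0783 by edgeR).

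**Figure D2:**
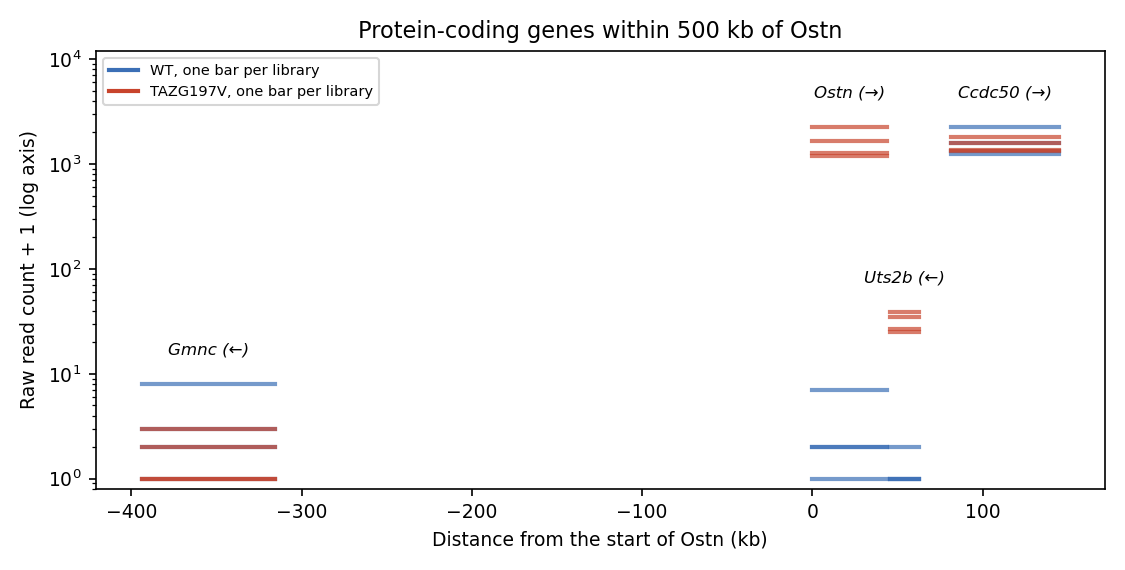
Raw read counts plus 1 on a log axis for the protein-coding genes within 500 kb of Ostn, drawn as bars over the span of each gene by distance from the start of Ostn in kb, 1 bar per library, WT in blue and TAZG197V in red; arrows give the strand. Ostn and Uts2b separate the genotypes, with 1182 to 2268 against 0 to 6 counts and 24 to 38 against 0 to 1 counts, while the bars of Ccdc50 and Gmnc overlap.

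The promoter of Uts2b is shown because it is the start of the neighbour that separated with Ostn. It covers the 250 bases before the RefSeq start on the minus strand, chr16:27370240-27370489 of GRCm38.p6, from RefSeq, and capitals mark TATAAA on either strand, here a pair of overlapping matches between -58 and -51 from the start.
Uts2b: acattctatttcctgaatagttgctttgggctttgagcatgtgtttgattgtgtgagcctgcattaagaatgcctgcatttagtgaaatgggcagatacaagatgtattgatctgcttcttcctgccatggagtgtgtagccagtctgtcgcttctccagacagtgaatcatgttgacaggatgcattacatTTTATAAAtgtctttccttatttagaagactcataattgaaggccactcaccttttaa
Of 32851 promoters of this length in the RefSeq table, 12.4% hold TATAAA on either strand. The element TGATGNAA, bound by C/EBP and ATF dimers, was searched on both strands too, is held by 3.45% of the promoters, and matched in none of the windows of Uts2b and the 9 members found in the table. A missing match says only that these letters are not in the window.

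Nppb, the gene of B-type natriuretic peptide, and Nppa, the gene of atrial natriuretic peptide, lie side by side on the plus strand of chromosome 4, at 147985788 to 147987205 and at 148000722 to 148002079, with 13516 bases between them. Their promoters are shown because these neighbours had the highest group means of the 10 genes per kilobase and varied widely within each genotype. Each sequence is the 250 bases before the RefSeq start on the plus strand, chr4:148000472-148000721 for Nppa and chr4:147985650-147985899 for Nppb in GRCm38.p6. The RefSeq start of Nppb lies inside the gene span given above, so its window runs into that span. The Nppa window ends at the base before the span of Nppa. Capitals mark the motifs searched on both strands.
Nppa: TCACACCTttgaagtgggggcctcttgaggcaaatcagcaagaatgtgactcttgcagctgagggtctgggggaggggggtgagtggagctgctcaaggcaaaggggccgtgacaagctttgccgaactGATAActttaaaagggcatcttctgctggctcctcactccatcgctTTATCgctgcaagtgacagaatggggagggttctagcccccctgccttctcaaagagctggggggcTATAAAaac
Nppb: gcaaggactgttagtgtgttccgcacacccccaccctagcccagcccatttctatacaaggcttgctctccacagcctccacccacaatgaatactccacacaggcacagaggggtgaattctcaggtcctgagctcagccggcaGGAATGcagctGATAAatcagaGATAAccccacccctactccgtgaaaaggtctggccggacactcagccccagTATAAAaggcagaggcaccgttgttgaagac
Both windows hold TATAAA, from -9 to -4 in Nppa and from -31 to -26 in Nppb, and both hold the GATA core GATAA, or TTATC on the other strand, in 2 places each. Nppa holds the T-box element TCACACCT from -250 to -243, and Nppb holds the MCAT motif CATTCC, read as GGAATG, from -105 to -100. Of all 32851 promoters, 22.6% hold the GATA core, 1.12% the T-box element and 12.6% the MCAT motif. The MEF2 consensus, held by 0.508%, matched in neither. These matches describe letters and are not measured binding sites.

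Nppa counts were 1272, 6359, 1740 and 33 in WT 1 to WT 4 and 1037, 4691, 805 and 635 in TAZG197V 1 to TAZG197V 4. The genotypes overlapped, and WT 4 lay far below every other heart. In CPM the values were 43.0, 174.7, 67.6 and 1.47 in WT and 37.7, 126.6, 25.98 and 23.3 in TAZG197V. The means for WT and TAZG197V hearts were 71.7 ± 73.9 and 53.4 ± 49.2 CPM (SD over 4 libraries). The direction of the difference depended on the model, with a log2 fold change of 0.72 (SE 0.632) with surrogate variables and -0.43 without them. Leaving out WT 4 gave -0.90 and leaving out WT 3 gave 1.18, so no direction is stated for Nppa. The antisense gene Gm13054 shares 61.5% of the exon bases of Nppa and had 2 to 15 counts. With the strand setting not stated, its counts do not show how many Nppa reads, if any, went uncounted in the shared bases.

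Nppb counts were 3064, 6107, 9319 and 123 in WT 1 to WT 4 and 9831, 13848, 9423 and 4329 in TAZG197V 1 to TAZG197V 4. In CPM the values were 103.6, 167.8, 361.9 and 5.49 in WT and 357.2, 373.7, 304.1 and 158.8 in TAZG197V. WT 3 lay among the TAZG197V hearts and WT 4 far below them, so that the genotypes overlapped. The means for WT and TAZG197V hearts were 159.7 ± 150.4 and 298.4 ± 97.7 CPM (SD over 4 libraries), with a log2 fold change of 1.47 (SE 0.764). The sign was positive in all 18 alternative fits, while the size ranged from 0.57 without WT 4 to 2.65 without WT 3. Nppb was past the call thresholds in 2 of the 18, without WT 3 and with no low-count filter. The deposited names place 2 libraries of each genotype in lane 7 and 2 in lane 8. In lane 8 the WT libraries held the lowest and the second highest Nppb value of all, and in lane 7 both TAZG197V libraries lay above both WT libraries.

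Nppb stood above Nppa per kilobase in all 8 libraries, with counts divided by all exon bases of each gene. Of the exon bases of Nppa, 61.5% are shared with the antisense gene Gm13054, against 0% for Nppb. With the strand setting not stated, reads in shared bases may be missing from Nppa. Part of this order and of the ratios below may come from that, which was not tested. The ratio of Nppb to Nppa was 2.67, 1.06, 5.93 and 4.13 in WT 1 to WT 4 and 10.5, 3.27, 13.0 and 7.55 in TAZG197V 1 to TAZG197V 4. It was lowest in the number 2 library of each genotype, the 2 libraries with the most Nppa, and the genotypes overlapped. The atrial markers did not follow Nppa across libraries: WT 2 had the most of both, but TAZG197V 2, second in Nppa at 126.6 CPM, had the lowest atrial sum of all, 33.8 CPM. Myl7, the atrial myosin light chain gene, had 13995 counts in WT 2 and 797 in WT 1, and 5 to 35 in the other libraries. WT 4, which was lowest in Nppa and Nppb, was the library with the most red cell transcripts and the second in brain transcripts, and the part of these in its low peptide values was not tested.

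**Figure D3:**
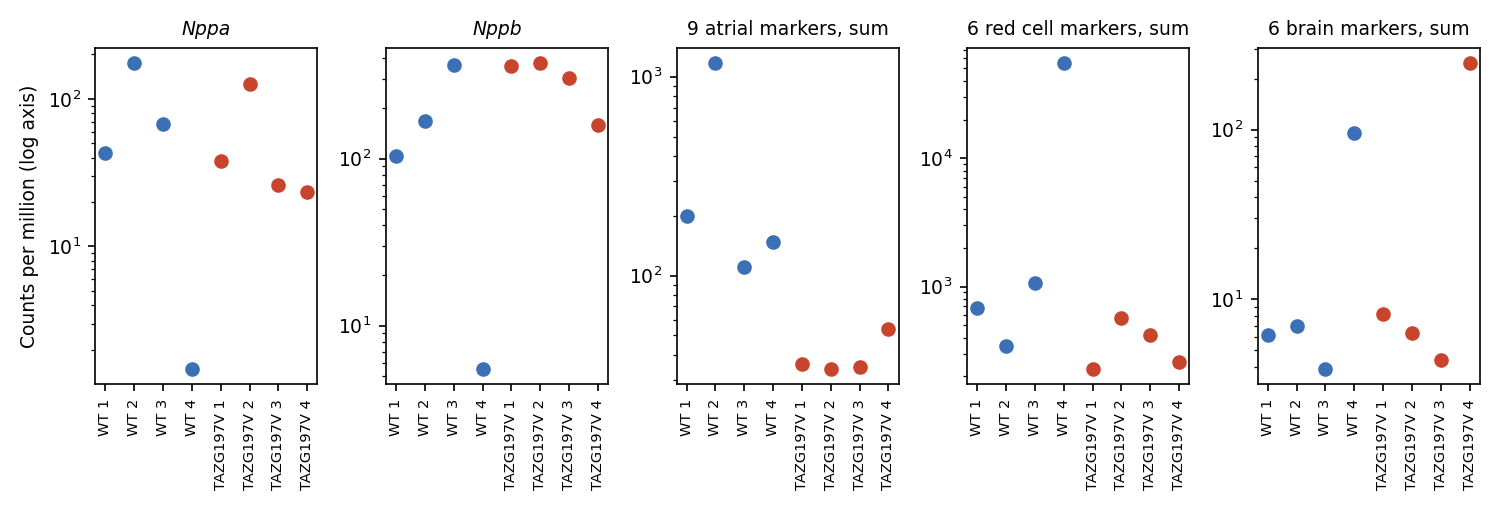
CPM on log axes in each library for Nppa, Nppb and the summed atrial, red cell and brain markers, WT in blue and TAZG197V in red. WT 4 is lowest for both peptide genes and highest for red cell markers at 55072 CPM, WT 2 is highest for atrial markers at 1171 CPM, and TAZG197V 4 is highest for brain markers at 247.0 CPM.

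The third natriuretic peptide gene, Nppc (chromosome 1, 86666291 to 86670571, minus strand), was near the floor of detection. It had 4, 6, 1 and 3 counts in WT 1 to WT 4 and 2, 0, 0 and 3 counts in TAZG197V 1 to TAZG197V 4, too few to be fitted. No difference could be detected at this depth.

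The genes around these peptides showed small differences. Clcn6, a chloride transporter gene on the other side of Nppa, gave a log2 fold change of 0.12 (SE 0.0712, adjusted p = 0.216 by edgeR), and 2510039O18Rik, beyond Nppb, was called higher at 0.22 (SE 0.0597, adjusted p = 0.0206 by edgeR), with an adjusted p under 0.05 in 11 of 18 alternatives. Beside Nppc, Cops7b gave 0.18 (SE 0.0968, adjusted p = 0.176 by edgeR) and Dis3l2 gave 0.21 (SE 0.0775, adjusted p = 0.0656 by edgeR).

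Corin and Furin encode the proteases that cut the natriuretic peptide precursors, corin the atrial one at the cell surface and furin, a general proprotein convertase, that of other members. Furin (chromosome 7, 80388585 to 80405436, minus strand) stood at 93.1, 82.1, 104.4 and 97.4 CPM in WT 1 to WT 4 and at 69.1, 65.5, 58.2 and 76.5 CPM in TAZG197V 1 to TAZG197V 4. Every TAZG197V heart lay below every WT heart. The means were 94.2 ± 9.36 and 67.3 ± 7.58 CPM, and the log2 fold change of -0.51 (SE 0.0842) kept its sign in all 18 alternatives, between -0.62 and -0.43.

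Corin (chromosome 5, 72300025 to 72504473, minus strand) stood at 205.7, 188.8, 271.6 and 385.0 CPM in WT 1 to WT 4 and at 250.9, 231.0, 237.5 and 270.7 CPM in TAZG197V 1 to TAZG197V 4. The TAZG197V hearts lay inside the range of the WT hearts, whose highest value was WT 4. The means were 262.8 ± 89.0 and 247.5 ± 17.5 CPM, and the log2 fold change of -0.12 (SE 0.0948) changed sign in 3 of 18 alternatives. It ranged from -0.44 with an atrial marker score to 0.14 without WT 4, and at -0.35 without WT 1 and WT 2 it was past the call thresholds in that fit alone.

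The cyclase receptor genes were lower in every TAZG197V heart than in every WT heart. Npr1 (chromosome 3, 90450591 to 90465866, minus strand), the receptor gene for the atrial and B-type peptides, stood at 21.01, 24.2, 24.3 and 19.3 CPM in WT 1 to WT 4 and at 14.8, 15.4, 18.2 and 16.3 CPM in TAZG197V 1 to TAZG197V 4. The ranges did not overlap, with WT 4 and TAZG197V 3 closest to each other. The means were 22.2 ± 2.46 and 16.2 ± 1.50 CPM and the log2 fold change was -0.43 (SE 0.0958), between -0.52 and -0.37 in the alternatives. Endothelial cells are known to carry this receptor, and their 5 markers summed to 698.2 to 972.4 CPM in WT and 574.6 to 709.6 CPM in TAZG197V, with Cdh5 and Kdr called lower. The fibroblast and cardiomyocyte marker sums were lower in TAZG197V too, with no overlap, and the part of these cells in the receptor values was not tested.

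Npr2 (chromosome 4, 43631935 to 43651244, plus strand), the receptor gene for C-type natriuretic peptide, stood at 60.8, 61.0, 61.7 and 57.4 CPM in WT 1 to WT 4 and at 49.9, 48.2, 48.4 and 52.3 CPM in TAZG197V 1 to TAZG197V 4. It was the least variable of the 10 genes within a genotype, with means of 60.2 ± 1.95 and 49.7 ± 1.91 CPM. The log2 fold change was -0.27 (SE 0.0553), and it ranged from -0.33 to -0.25. Its ligand gene Nppc was barely detected in the same libraries.

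Npr3 (chromosome 15, 11839896 to 11907287, minus strand), the clearance receptor gene, stood at 21.1, 27.6, 36.4 and 70.7 CPM in WT 1 to WT 4 and at 30.05, 36.9, 41.3 and 45.6 CPM in TAZG197V 1 to TAZG197V 4. WT 4 was highest and the other WT hearts lay low or within the TAZG197V range. The means of 39.0 ± 22.1 and 38.4 ± 6.64 CPM differed by less than the spread between libraries. The log2 fold change of -0.02 (SE 0.219) held its sign in 9 of 18 alternatives and ranged from -0.44 with an atrial marker score to 0.41 without WT 4. Per kilobase, Npr3 relative to Npr1 was 0.511, 0.581, 0.765 and 1.86 in WT 1 to WT 4 and 1.04, 1.22, 1.154 and 1.43 in TAZG197V 1 to TAZG197V 4. The genotypes overlapped through WT 4, and the other WT libraries lay below every TAZG197V library.

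Mme (chromosome 3, 63241537 to 63386030, plus strand), the neprilysin gene, had the largest fitted decrease among the 9 genes tested. It stood at 17.4, 14.4, 17.1 and 12.1 CPM in WT 1 to WT 4 and at 7.16, 5.40, 5.65 and 6.56 CPM in TAZG197V 1 to TAZG197V 4. Every TAZG197V heart lay well below the lowest WT heart. The means of 15.3 ± 2.50 and 6.19 ± 0.816 CPM stood in a ratio of 2.46, and the log2 fold change of -1.29 (SE 0.151) ranged from -1.42 to -1.22. Markers of fibroblasts moved the same way: the 5 genes summed to 750.5 to 1252 CPM in WT and 502.9 to 696.9 CPM in TAZG197V, 3 of them were called lower, and their part in the Mme values was not tested.

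**Figure D4:**
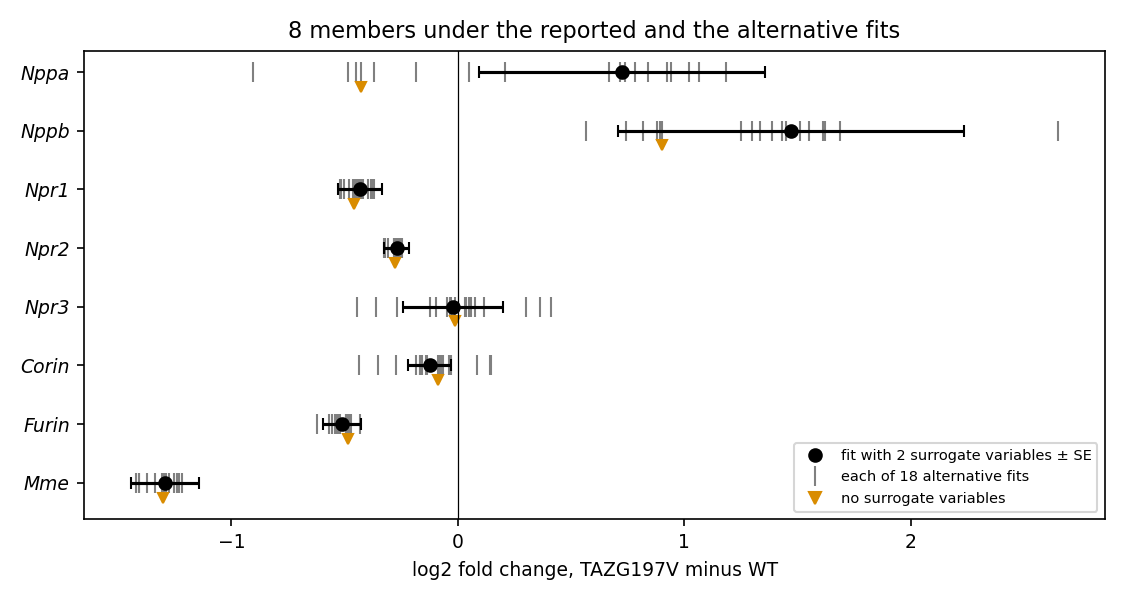
Log2 fold change of TAZG197V over WT for 8 members (Ostn, at 9.27, and the untested Nppc are not drawn), with the standard error of the reported fit in black, each of 18 alternative fits as a grey tick and the fit with no surrogate variables as an orange triangle. The ticks of Npr1, Npr2, Furin and Mme stay below 0, those of Nppb stay above 0 and those of Nppa, Npr3 and Corin fall on both sides.

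Per kilobase the WT order by group means was Nppb (204.5 CPM per kb), Nppa (82.9), Corin (48.7), Npr2 (12.9), Furin (10.3), Npr1 (4.64), Npr3 (4.15), Mme (1.32), Nppc (0.113) and Ostn (0.0517 CPM per kb). Neighbours whose libraries overlapped were Nppb and Nppa, Nppa and Corin, Npr1 and Npr3, and Nppc and Ostn. In TAZG197V the order of the others was kept except that Npr3 (4.10 CPM per kb) stood before Npr1 (3.38), a pair that overlapped there too. The place of Nppa in both orders is uncertain because of its shared exon bases.

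By Pearson's correlation of log2 CPM over the 8 libraries, the genes most like Ostn were Adm2 (0.998), a peptide hormone gene, Mars (0.998) and Cars (0.998), which encode aminoacyl-tRNA synthetases, Eif2s2 (0.997), a translation initiation factor gene, and Atf5 (0.997), a stress-responsive transcription factor gene. All 5 were called higher in TAZG197V, so the likeness holds the difference between genotypes in common, and 1450 genes had a correlation over 0.9. The genes most like Nppa were Gm30085 (0.994), Ackr4 (0.979), Id3 (0.969), Pigw (0.963) and Llph (0.959), none of them an atrial marker, out of 23 genes over 0.9. Those most like Nppb were Dnttip2 (0.982), Gm5463 (0.973), Snrpd1 (0.966), Exosc3 (0.965) and Lyar (0.965), out of 69 genes. For Nppa and Nppb the points share 1 extreme library, WT 4.

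In the reported fit, genes that carry the cGMP signal were called in both directions. Of 16 listed, 15 were tested, with 3 called higher and 4 lower. That is 46.7%, beside 33.5% of all genes tested (18.5% higher and 15.1% lower). The median log2 fold change was -0.21, beside -0.01 over all genes. Genes of 2 subunits of soluble guanylyl cyclase, the nitric oxide receptor, fell: Gucy1a1 from 25.9 ± 6.78 to 17.0 ± 1.82 CPM (log2 fold change -0.49, adjusted p = 0.00193 by edgeR) and Gucy1b1 from 26.9 ± 3.18 to 19.7 ± 2.48 CPM (-0.41, adjusted p = 0.00607 by edgeR). Irag1 (Mrvi1 in the annotation), a substrate of cGMP kinase at the calcium store, fell by 0.54 on the log2 scale (adjusted p = 0.00872 by edgeR). Pde5a, which degrades cGMP, fell from 6.20 ± 1.07 to 4.18 ± 0.657 CPM (-0.56, adjusted p = 0.0376 by edgeR). Pde2a, the cGMP-stimulated phosphodiesterase gene, was at 2.07 ± 0.394 CPM in WT and 1.11 ± 0.267 CPM in TAZG197V (-0.93, adjusted p = 0.00541 by edgeR). Its mean scaled count of 46.6 kept it from being called, while its adjusted p passed in all 18 alternatives. Gm45837 on the same strand shares 64.3% of the exon bases of Pde2a. Reads there may be uncounted, so the level of Pde2a is uncertain. Prkg1, the cGMP-dependent kinase gene, rose from 18.5 ± 4.46 to 24.1 ± 3.01 CPM (0.49, adjusted p = 0.00166 by edgeR), as did the kinase substrate gene Vasp (0.44, adjusted p = 0.00488) and the phosphodiesterase gene Pde1c (0.41, adjusted p = 0.0409). None of the 4 decreases called above kept its call without WT 1 and WT 2, the libraries with the most atrial transcripts. None did with an atrial marker score as the covariate either. With the atrial score the log2 fold change was -0.25 for Gucy1a1, -0.28 for Gucy1b1, -0.36 for Irag1 (Mrvi1) and -0.52 for Pde5a. The increases of Vasp (0.34, adjusted p = 0.0616 by edgeR) and Pde1c (0.25, adjusted p = 0.412) did not pass in that fit either. In each of those fits 2 genes were called, all of them higher, and 1 of the 2 with the atrial score was among the 7 above. Over 18 alternatives the adjusted p passed in 16 for Gucy1a1, Gucy1b1 and Irag1 (Mrvi1), in 9 for Pde5a, in 11 for Prkg1, in 17 for Vasp and in 7 for Pde1c. Smooth muscle, which uses this pathway, was not even across libraries. Its 4 markers summed to 123.6 to 256.4 CPM in WT and 218.1 to 412.2 CPM in TAZG197V. Acta2 was called higher and Myh11, Cnn1 and Tagln lower, and their part was not tested. Tagln shares 67.9% of its exon bases with genes on the other strand, so its level is uncertain.

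Of 13 further genes for peptide processing and breakdown, 6 were tested, with 1 called higher and 2 lower (50.0%, beside 33.5% of all genes; median log2 fold change -0.40). Pcsk6, the convertase known to activate corin, fell from 85.8 ± 9.72 to 57.3 ± 9.20 CPM (-0.60, adjusted p = 0.00463 by edgeR), and Ece1, the endothelin-converting enzyme gene, fell from 108.2 ± 12.8 to 76.3 ± 11.3 CPM (-0.50, adjusted p = 0.00994 by edgeR). Both passed the adjusted p in all 18 alternatives. Ide, the gene of insulin-degrading enzyme, which also cuts natriuretic peptides, rose from 99.0 ± 11.9 to 117.6 ± 3.90 CPM (0.27, adjusted p = 0.0412 by edgeR), and passed in 5 of 18 alternatives. The peptidase gene Dpp4 was at 6.90 ± 2.19 CPM in WT and 4.18 ± 1.42 CPM in TAZG197V (-0.77, adjusted p = 0.0554 by edgeR). The meprin genes Mep1a and Mep1b had 0 counts in every library.

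Of 18 regulators of the natriuretic peptide genes, all tested, 8 were called lower and 0 higher (44.4%, beside 33.5% of all genes called in either direction and 15.1% called lower; median log2 fold change -0.17). At an unadjusted p under 0.05 the edgeR test gave 9 lower and 0 higher, where 48.2% of all genes tested lay under it, and DESeq2 called 7 lower and 0 higher. Hdac4, a class II histone deacetylase gene, fell from 32.6 ± 7.42 to 15.0 ± 0.809 CPM (-1.05, adjusted p = 0.000639 by edgeR). Tbx5, a T-box factor gene, fell from 24.3 ± 3.78 to 15.7 ± 1.44 CPM (-0.60, adjusted p = 0.00575 by edgeR), and Mef2c from 74.3 ± 9.84 to 53.4 ± 6.66 CPM (-0.49, adjusted p = 0.000394 by edgeR). These 3 passed the adjusted p in all 18 alternatives. Myocd, a coactivator of serum response factor, Nfatc4 and Nfatc3 gave -0.56, -0.56 and -0.30 with adjusted p = 0.0342, 0.0383 and 0.0287 by edgeR. They passed in 10, 9 and 7 of 18 alternatives. The count was 3 without WT 2 or without TAZG197V 2, and 4 without WT 1 or without TAZG197V 1, TAZG197V 3 or TAZG197V 4. It was also 4 with the atrial marker score and 4 without both WT 1 and WT 2. The cardiomyocyte and fibroblast marker sums given above were lower in every TAZG197V heart than in every WT heart, and their part in this list was not tested. Gata4 (-0.05, adjusted p = 0.570), Nkx2-5 (0.10, adjusted p = 0.321) and Srf (-0.01, adjusted p = 0.895), core cardiac activators, were not called by edgeR.

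Of 24 other vasoactive peptides and receptors, 16 were tested, with 2 called higher and 5 lower (43.8%, beside 33.5% of all genes). The median log2 fold change was -0.14. The 16 include Uts2b, which passed the low-count filter only through the TAZG197V libraries and was not called. Ednra, the endothelin A receptor gene, rose from 39.7 ± 2.15 to 93.1 ± 7.38 CPM (1.23, adjusted p = 1.34e-05 by edgeR), and Agtr1a, an angiotensin II receptor gene, from 36.6 ± 6.42 to 60.2 ± 5.97 CPM (0.75, adjusted p = 0.00124 by edgeR). Apln, the apelin gene, fell from 18.1 ± 3.34 to 4.69 ± 1.43 CPM (-1.93, adjusted p = 0.000197 by edgeR), and its receptor gene Aplnr by 0.35 on the log2 scale (adjusted p = 0.0430 by edgeR). Both genes and Ece1 are known from endothelium, whose summed markers are given beside Npr1 and were lower in TAZG197V in Cdh5 (-0.33) and Kdr (-0.48), and their part was not tested. Agt, the angiotensinogen gene, fell from 3.84 ± 0.559 to 1.31 ± 0.649 CPM (-1.58, adjusted p = 0.00524 by edgeR). Crhr2, the urocortin receptor gene, fell from 34.3 ± 2.7 to 12.6 ± 1.71 CPM (-1.45, adjusted p = 5.04e-05 by edgeR), and Ramp1, a subunit gene of the CGRP receptor, from 9.89 ± 3.29 to 3.29 ± 0.369 CPM (-1.45, adjusted p = 0.000575 by edgeR). The 2 increases and the decreases of Apln, Agt, Crhr2 and Ramp1 passed the adjusted p in all 18 alternatives, and that of Aplnr in 8. The ligand genes Adm (0.00, adjusted p = 0.991) and Edn1 (-0.36, adjusted p = 0.155) did not pass by edgeR.

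**Figure D5:**
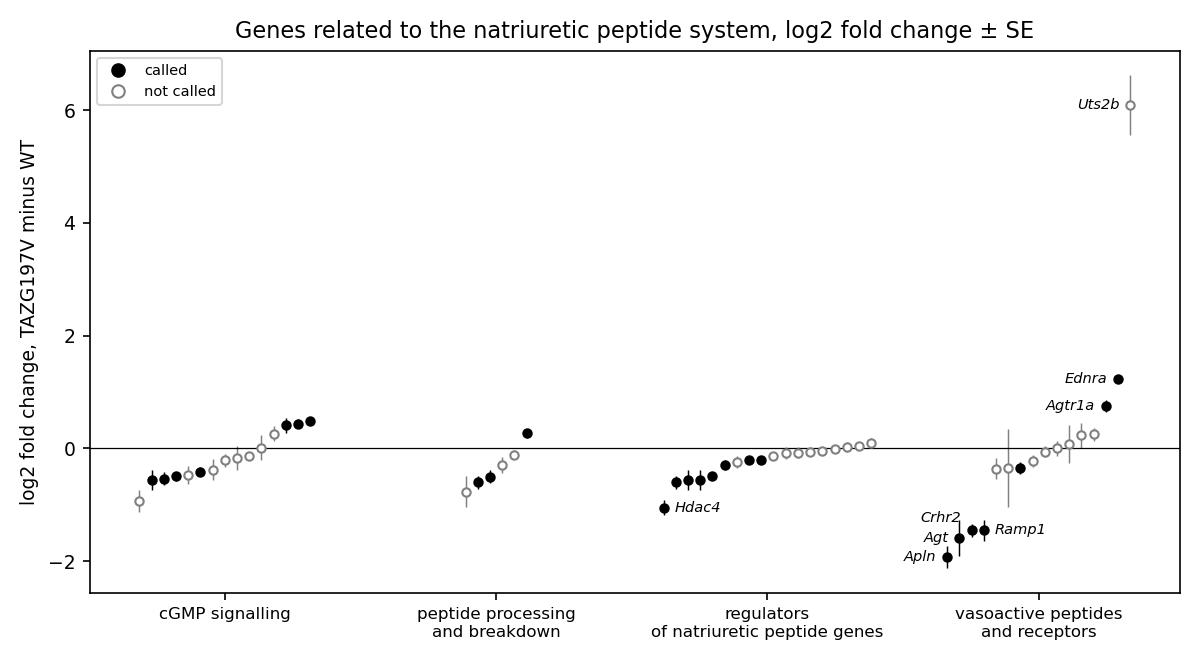
Log2 fold change of TAZG197V over WT with its standard error for every tested gene of 4 lists, cGMP signalling (15 genes), peptide processing and breakdown (6), regulators of natriuretic peptide genes (18) and vasoactive peptides and receptors (16), filled where called. Agtr1a and genes changed by more than 1 are named, among them Uts2b at 6.09, Ednra at 1.23, Hdac4 at -1.05 and Apln at -1.93.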

How the data were processed

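Per the labels, the authors demultiplexed 50-base single-end reads with bcl2fastq 2.20.0, checked them with FastQC 0.11.9, aligned them to mm10 with STAR 2.7.3a, allowing 2 mismatches, and counted reads over exons with featureCounts of Subread 2.0.0. The deposited values are raw counts per Ensembl gene. The strand setting and annotation release are not given in the sources used here, so reads of overlapping antisense genes cannot be told apart. The 92 ERCC rows summed to 0 counts and were left out. Symbols and positions came from GENCODE M21 (55230 of 55471 IDs had a symbol), and promoter sequences from RefSeq (9 of 10 members matched; Ostn was not among them).

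The analysis ran in edgeR 4.0.16 under R 4.3.3 (filterByExpr, TMM, quasi-likelihood F-test, two-sided) with 2 surrogate variables from svaseq (sva 3.50.0), and p-values were adjusted by Benjamini-Hochberg over 15084 genes. A call needed an adjusted p under 0.05, a log2 fold change beyond 0.20 in either direction and a mean scaled count of at least 50. Correlations used log2 CPM with a prior count of 2. The procedure was tested on simulated data. Members and lists were chosen with earlier results of these data known. Named genes were all members, the edited gene, up to 6 called genes per list by size of change with any listed gene that binds or cuts a member or its product (such as Dpp4), chromosomal neighbours, the 5 genes most like Ostn, Nppa and Nppb, and cell markers. Listed genes outside that rule (Gucy1b1 and Aplnr, each the seventh called gene of its list, and Pde2a, Gata4, Nkx2-5, Srf, Adm, Edn1, Mep1a and Mep1b) were chosen after their values were seen, and some genes within it are left unnamed. No library was a repeat of another (chi-square per gene of at least 10.2 within a genotype). Alternatives were DESeq2 1.42.0, other covariates, size factors or filters, a 1.5-fold cut-off and omission of libraries. Totals of 23055689 to 36301031 counts make counting error small except for genes with few counts, and counting intervals cover counting error only.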

Additional observations from a re-analysis of the deposited data

Results flagged for a closer look

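By Dixon's criterion for 4 samples, the gap of the highest or lowest library to its nearest neighbour is divided by the range of its group. Of 40 sets of 4 libraries tested, 5 exceeded the critical value, where chance gives about 1 in 20, or 2 sets. None of the 9 members that passed the low-count filter was among them. Nppc, which did not pass it, was lowest in WT 3 (0.847 of the WT range on the log2(CPM + 0.01) scale), where it had 1 count against 3 to 6 in the other WT libraries. The other 4 were summed cell markers on the log2 scale. WT 3 was highest in endothelial markers (0.940 of the WT range), and WT 2 was highest in fibroblast markers (0.881 of the WT range). TAZG197V 4 was highest in atrial markers (0.879 of the TAZG197V range) and in brain markers (0.845).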

How the results depend on the processing

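Over the whole table, 5060 genes were called, 3169 with an atrial marker score in place of surrogate variables, 1843 at a fold change of at least 1.5, and 3675 to 4816 with 1 library left out. The atrial score itself did not overlap between genotypes (1.35 to 5.58 in WT and 1.00 to 1.26 in TAZG197V), so it and genotype cannot be fully told apart. For cGMP signalling, 7 genes were called, 2 with the atrial score, 2 without WT 1 and WT 2 (an alternative chosen after seeing the data), 0 at a fold change of at least 1.5 and 5 to 8 with 1 library left out. For peptide processing and breakdown, 3 were called, 1 at a fold change of at least 1.5, and 2 to 3 with 1 library left out. Of the regulators, 8 were called, 4 with the atrial score, 4 without WT 1 and WT 2, 2 at a fold change of at least 1.5 and 3 to 6 with 1 library left out. For the vasoactive list 7 were called and 6 to 9 in the alternatives. With the replicate number as a block in place of surrogate variables, 4272 genes were called, and 5, 2, 5 and 7 genes of the 4 lists in the same order. The deviations of same-numbered libraries correlated at 0.354, 0.0672, 0.342 and 0.457. TAZG197V 1, 3 and 4 correlated best with the WT library of their own number and TAZG197V 2 with WT 3 (0.385), and since number 2 lay under 0.1 and the labels state no pairing, the libraries were not treated as paired. Under the block the log2 fold change was 9.45 for Ostn, 0.05 for Nppa and 1.69 for Nppb. Npr2 gave -0.33 without both number 4 libraries. The cause of these shifts was not tested. Depth limits Ostn in WT, Uts2b and Nppc, where single counts set the value.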
